A study of Mus musculus with 4 samples.

Results

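The secreted antagonists that act on the Wnt protein itself were followed across the cell types of the developing mouse molar. They are 7 genes, taken by symbol from the 32285 genes of the deposited count tables, namely Sfrp1, Sfrp2, Sfrp4, Sfrp5, Frzb, Wif1 and Notum. All 7 were detected in all 4 libraries. The single-cell libraries came from wild-type mice (WTB6 in the labels), from the maxillary or the mandibular molar tooth organ, at E15.5 (written E15 in the age label) or at P1 (P0/P1 pups in the protocol). Each combination of stage and jaw was 1 library of 6 pooled tooth organs. The libraries hold 56940 barcodes, of which 44144 were used. These are the barcodes with at least 1000 UMIs (a UMI tags 1 captured RNA molecule) that, in the P1 mandibular library, were not also present in the P1 maxillary library.

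Wnt ligands are lipid-modified proteins that bind a Frizzled receptor and an Lrp co-receptor on the receiving cell. The secreted Frizzled-related proteins, encoded by Sfrp1, Sfrp2, Sfrp4, Sfrp5 and Frzb, carry a domain like the ligand-binding part of Frizzled and hold Wnt outside the cell. Wif1 binds Wnt through a domain of its own, and Notum is an enzyme that removes the lipid that Wnt needs to bind Frizzled. In the molar, Wnt signaling is used by the epithelium that makes enamel and by the papilla mesenchyme that makes dentin and pulp.

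Promoters are shown for 3 members with different patterns in the results that follow: Sfrp2, which was lower at P1 in the mesenchyme, Wif1, which was higher, and Frzb, which was highest in papilla or follicle of the maxillary libraries. They are RefSeq sequence of build GRCm38.p6, from 250 bases before to 50 bases after the start, 5' to 3' on the strand of the gene. Capitals mark the core TCF/LEF motif CTTTGA or its reverse complement TCAAAG. The windows are chr3:83766071-83766370 on the plus strand for Sfrp2, chr10:121033754-121034053 on the plus strand for Wif1 and chr2:80447347-80447646 on the minus strand for Frzb.
Sfrp2: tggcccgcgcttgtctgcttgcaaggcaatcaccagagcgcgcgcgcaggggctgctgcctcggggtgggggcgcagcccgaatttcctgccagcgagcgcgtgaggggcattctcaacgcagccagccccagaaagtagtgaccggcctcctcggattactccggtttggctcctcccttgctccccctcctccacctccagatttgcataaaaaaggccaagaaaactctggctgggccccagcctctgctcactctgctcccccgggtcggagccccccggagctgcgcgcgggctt
Wif1: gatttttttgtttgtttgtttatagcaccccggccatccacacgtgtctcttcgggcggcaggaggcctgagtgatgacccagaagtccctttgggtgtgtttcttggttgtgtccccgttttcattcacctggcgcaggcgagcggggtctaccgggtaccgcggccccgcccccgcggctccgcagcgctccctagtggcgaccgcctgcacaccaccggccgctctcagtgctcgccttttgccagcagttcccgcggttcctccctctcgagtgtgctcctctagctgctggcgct
Frzb: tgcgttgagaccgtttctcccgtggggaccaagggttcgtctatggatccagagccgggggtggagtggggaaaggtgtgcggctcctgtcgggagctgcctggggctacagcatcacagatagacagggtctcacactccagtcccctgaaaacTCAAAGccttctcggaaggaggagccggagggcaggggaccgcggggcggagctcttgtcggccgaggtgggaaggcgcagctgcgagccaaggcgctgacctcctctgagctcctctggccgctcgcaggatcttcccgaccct
The TCF/LEF core was matched 1 time in the Frzb window and not in the Sfrp2 or Wif1 window, with both strands searched. It occurs in 16.0% of the 32851 promoters of the same length. A match of letters describes the sequence and shows no binding.

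The E15.5 maxillary library kept 10073 barcodes with a median of 9596 UMIs, and the E15.5 mandibular library kept 6911 with a median of 11234. The P1 maxillary library kept 17040 barcodes with a median of 4019 UMIs, and the P1 mandibular library kept 10120 with a median of 10390. The 7 genes together received 83774, 32319, 98480 and 73506 UMIs in the same order. Levels are a gene's summed UMIs in a cell class per 1000000 UMIs of that class (CPM), with exact 95% Poisson intervals in parentheses. Ratios are on the log2 scale of CPM, with exact 95% binomial intervals. With 1 library per stage and jaw there was no replicate of a combination and no test was made, so the intervals cover counting error only and no difference between stages or jaws has a replicate check. The counts come from the 3' end of transcripts and are not scaled by length, so levels were compared between cells and not between genes.

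The P1 libraries stand apart in their barcodes. They share 7131 barcodes, against 28 to 70 for the other pairs of libraries. For a shared barcode the maxillary UMI count was 4.212 times the mandibular one in the median, with the 5th and 95th percentiles at 4.008 and 4.546. Of the barcodes kept in the P1 maxillary library 41.8% were shared, with a median of 12089 UMIs against 2545 in those that were not. Shared barcodes made up 96.6% of the P1 maxillary dental papilla class and 95.8% of dental follicle, but 0.4% of facial mesenchyme marked by Alx1 and Pax3. Which jaw the shared barcodes came from was not tested, so the maxillary mesenchyme ratios of P1 over E15.5 are given with and without them. The P1 maxillary values of papilla, of follicle, of the class marked by Bglap, Dmp1 and Phex (95.7% shared) and of the pathway genes include them and are given with them only, unless stated.

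Each library was clustered without the Wnt pathway genes, members included, and clusters were named from marker genes. Some names are weak. The clusters called dental follicle in the E15.5 maxillary library have no follicle marker among their 10 leading genes, and the P1 mandibular follicle class is 1 cluster of 106 cells with 3 of 6 follicle markers higher than in the other cells. In the P1 maxillary papilla class 6 of 10 papilla markers were higher. The E15.5 mandibular library gave no papilla or follicle class. A P1 class high in Dspp, Dmp1, Phex, Bglap and Ifitm5, genes of mineralizing odontoblasts and osteoblasts, is called here by its genes Bglap, Dmp1 and Phex. Of 14 odontoblast and osteoblast markers 13 were higher in this class than in other cells in the maxillary library, and 11 in the mandibular. The osteoblast marker Runx2 was lower in both libraries, and the osteoblast markers Ibsp and Spp1 were lower in the mandibular one. Immune and erythroid cells, which should not make these proteins, serve as the background of each library, and the parts of free RNA and doublets in it were not tested.

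Across the whole mesenchyme, 5 of the 7 genes were at least 2-fold higher than in epithelium in all 4 libraries, namely Sfrp1, Sfrp2, Sfrp4, Frzb and Wif1. Of the 18191 genes measured in every library 7.62% met the same rule. The E15.5 mandibular epithelium is 143 cells, all of the suprabasal oral epithelium class. No member was at least 2-fold higher in epithelium in all 4 libraries, a rule met by 5.45% of genes. The log2 ratio of mesenchyme over epithelium for Sfrp5 was 1.39 (0.49 to 2.43) in E15.5 maxillary, -4.60 (-5.22 to -4.00) in E15.5 mandibular, -3.50 (-3.91 to -3.11) in P1 maxillary and -3.49 (-4.00 to -3.01) in P1 mandibular, so it was higher in epithelium in 3 libraries. For Notum the log2 ratio was -0.57 (-0.94 to -0.18) and -0.16 (-1.34 to 1.32) in the E15.5 maxillary and mandibular libraries and 3.94 (3.65 to 4.24) and 4.04 (3.76 to 4.33) at P1. Without the shared barcodes the P1 maxillary Notum ratio was -0.006.

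**Figure D1:**
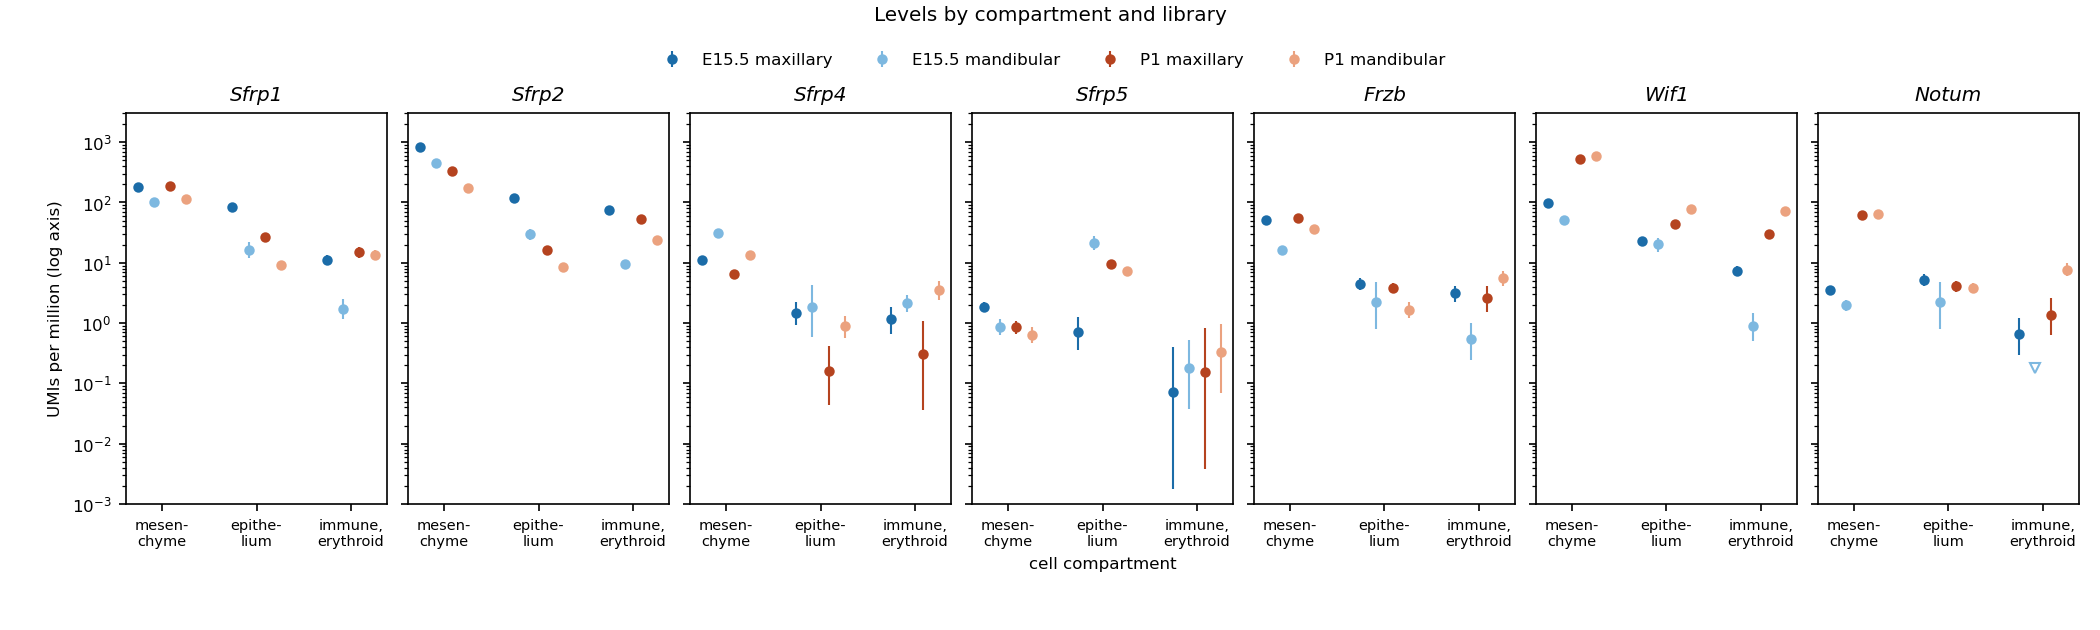
Level of each gene in mesenchyme-like, epithelium-like and immune or erythroid cells of each library, in CPM on a log axis, with exact 95% Poisson intervals as bars; the open triangle is the limit of 3 counts where none was seen. Wif1 and Notum are higher at P1 than at E15.5 in the mesenchyme of both jaws, and Sfrp2 is lower.

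Sfrp2 (chr3:83766321-83774316, plus strand) was the member at least 2-fold lower at P1 in the mesenchyme of both jaws. Its mesenchyme level was 848 (841 to 855) CPM in the E15.5 maxillary and 454 (448 to 460.1) CPM in the E15.5 mandibular library. At P1 it was 329 (325 to 333) CPM in the maxillary and 176 (173 to 179) CPM in the mandibular library. Both P1 values lay below both E15.5 values. The log2 ratio of P1 over E15.5 was -1.37 (-1.39 to -1.35) in the maxillary and -1.37 (-1.40 to -1.33) in the mandibular molar. Of 20387 genes 3.03% were at least 2-fold lower in both jaws, and Sfrp2 was the 1 member among them. As a mean over cells the maxillary ratio was -0.16, and no member met the rule. Within the P1 maxillary mesenchyme, shared barcodes measured 102 CPM and the others 1374 CPM, and without the shared barcodes the maxillary log2 ratio was 0.70. The lower maxillary value thus rested on the shared barcodes, while the mandibular value did not use them. Dropping the shared barcodes left 80 of 2347 P1 maxillary papilla cells, so the make-up changed as well. Sfrp2 measured 26.1 CPM in shared and 23.5 CPM in other papilla barcodes, the last from 5 UMIs. In P1 maxillary mesenchyme with no type name it was 96.5 and 1526 CPM. The mandibular mesenchyme differed in make-up between stages, with no papilla class at E15.5 and papilla as 2040 of 5209 mesenchymal cells at P1. The part of this in the mandibular ratio was not tested. The maxillary and mandibular log2 ratios were -0.76 (-0.92 to -0.59) and -1.23 (-1.35 to -1.11) for Sfrp4, and -1.10 (-1.56 to -0.66) and -0.45 (-1.11 to 0.21) for Sfrp5. Without the barcodes shared by the P1 libraries the maxillary ratios of these genes were 0.44 and -1.90.

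Within mesenchymal classes found at both stages of a jaw, the Sfrp2 interval lay below 0 in 8 of 8 pairs of class and jaw. Sfrp2 was at least 2-fold lower in 3 of the 8, maxillary papilla and follicle and mandibular osteoblasts. Mandibular jaw mesenchyme marked by Ebf2 and Meox2 had a log2 ratio of -0.85 (-0.96 to -0.74). In maxillary papilla Sfrp2 measured 193 (177 to 211) CPM in the E15.5 cells and 26.1 (24.2 to 28.0) CPM in the P1 cells, a log2 ratio of -2.89 (-3.05 to -2.73). Macrophages and endothelium were also lower at P1 in that jaw, with 117 and 39.6 CPM in macrophages and 125 and 25.0 CPM in endothelium of the E15.5 and P1 libraries. Pericytes and Schwann lineage glia were not, with log2 ratios of 0.22 (-0.16 to 0.60) and 0.10 (-0.19 to 0.38). P1 maxillary macrophages outside the shared barcodes measured 118 CPM. The part of this background in the papilla values was not tested. Immune and erythroid cells of the P1 maxillary library measured 4.16 CPM in shared and 98.6 CPM in other barcodes, and 96.6% of the papilla barcodes were shared. Mandibular osteoblasts, the bone-forming cells, measured 510.0 (486 to 535) CPM in the E15.5 cells and 159 (142 to 176) CPM in the P1 cells. Of these osteoblasts 41.4% had a high doublet score at P1, against 6.9% at E15.5. Fibroblasts marked by Dpt and Clec3b had log2 ratios of -0.95 (-1.002 to -0.89) in the mandibular and -0.26 (-0.31 to -0.21) in the maxillary molar, the last being 0.29 without the shared barcodes. The ratio nearest to 0 was -0.20 (-0.39 to -0.01) in mandibular tendon and ligament, and it was 0.08 with finer clusters.

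Among named classes, facial mesenchyme marked by Alx1 and Pax3 held the highest Sfrp2 level of both maxillary libraries, with 2065 (2019.9 to 2112) CPM in the E15.5 cells and 1578 (1533 to 1624) CPM in the P1 cells. After each cell was thinned to 1000 UMIs, 77.2% and 65.4% of these cells had an Sfrp2 UMI, against 3.48% and 2.97% of immune and erythroid cells. Unthinned, the shares were 98.6% and 82.5% at median depths of 10475 and 2429 UMIs, against 12.2% and 5.67% of immune and erythroid cells at 6521 and 2135 UMIs. In the mandibular libraries the class with a cell type name and the highest level was the fibroblasts marked by Dpt and Clec3b, with 862 (844 to 881) CPM in the E15.5 cells and 448 (433 to 463) CPM in the P1 cells. The rest of the P1 mandibular mesenchyme, with no type name, measured 482 (469 to 496) CPM. Single unnamed mesenchymal clusters went higher at P1. A mandibular cluster of 117 cells led by Hpse2, Sst and Nts reached 2603 (2515 to 2694) CPM, and a maxillary cluster of 381 cells led by Cdh20 and Nrg3 reached 1996 (1912 to 2084) CPM.

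Frzb (chr2:80411970-80447625, minus strand), a Frizzled-related protein also called Sfrp3, was highest in tooth mesenchyme of the maxillary libraries among named classes. At E15.5 the maxillary papilla measured 222 (204 to 240.4) CPM and the follicle class 90.2 (86.3 to 94.3) CPM. At P1 the order was the other way in the maxillary library, with 160.0 (146 to 174) CPM in follicle and 67.8 (64.9 to 70.9) CPM in papilla. The P1 mandibular papilla measured 70.0 (66.9 to 73.2) CPM, and its interval overlaps that of the maxillary papilla. The P1 mandibular follicle cluster was lower than the maxillary follicle, at 24.4 CPM. In the E15.5 mandibular library the highest cluster was an unnamed mesenchymal one of 362 cells led by Tfap2b and Col8a1, at 86.6 (78.0 to 96.0) CPM. In maxillary papilla the log2 ratio of P1 over E15.5 was -1.71 (-1.84 to -1.58), but with finer clusters it was 0.64, so its direction depended on how the papilla was delimited.

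Over the whole mesenchyme Frzb measured 51.7 (49.98 to 53.5) CPM in E15.5 maxillary, 16.1 (14.97 to 17.3) CPM in E15.5 mandibular, 55.7 (54.0 to 57.3) CPM in P1 maxillary and 36.6 (35.2 to 38.1) CPM in P1 mandibular. The E15.5 mandibular library was the low one. The log2 ratio of P1 over E15.5 was 0.11 (0.04 to 0.17) in the maxillary and 1.18 (1.06 to 1.30) in the mandibular molar. Within the P1 maxillary mesenchyme Frzb measured 60.0 CPM in shared and 35.8 CPM in other barcodes, and without the shared barcodes the maxillary log2 ratio was -0.53.

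Sfrp1 (chr8:23411502-23449632, plus strand) was at least 2-fold above immune and erythroid cells in 11 of 14, 11 of 12, 12 of 16 and 7 of 15 other classes of at least 50 cells (unnamed clusters left out) in the E15.5 maxillary, E15.5 mandibular, P1 maxillary and P1 mandibular libraries, where those cells measured 11.3, 1.73, 14.9 and 13.6 CPM. Its mesenchyme level was 179.8 (177 to 183) CPM in E15.5 maxillary, 101 (98.3 to 104) CPM in E15.5 mandibular, 188 (185 to 191) CPM in P1 maxillary and 116 (114 to 119) CPM in P1 mandibular. Both maxillary values were above both mandibular values, and the stages lay close, with log2 ratios of P1 over E15.5 of 0.06 (0.03 to 0.10) and 0.20 (0.15 to 0.25) in the maxillary and mandibular molar. The maxillary ratio was 0.23 without the shared barcodes.

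The class with the highest Sfrp1 level differed among libraries. In the E15.5 maxillary library it was an epithelial class, gland-like epithelium, at 359 (334 to 386) CPM in 89 cells. In the E15.5 mandibular library it was the Schwann lineage, the glia of peripheral nerves, at 208 (189 to 228) CPM. At P1 the class named dental follicle was highest in both jaws, at 507 (483 to 533) CPM in the maxillary and 319.7 (285 to 358) CPM in the mandibular library. These follicle classes may not be the same cells. The follicle marker Spon1 was high in both, at 675 and 1038 CPM, but Bmp3 measured 3.12 CPM in the maxillary and 648 CPM in the mandibular class. Clusters with Pappa and Gabrg3 among their leading genes were also high at P1, with 382 (367 to 397) CPM in 591 maxillary cells and 343 (328 to 358) CPM in 547 mandibular cells. Olfactory sustentacular cells, support cells of the nasal epithelium that were found in the P1 maxillary library, measured 223 (205 to 243) CPM.

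Sfrp4 (chr13:19623104-19632994, plus strand) was highest in osteoblasts of both E15.5 libraries. Osteoblasts measured 55.3 (47.9 to 63.5) CPM in the E15.5 maxillary, 284 (266 to 303) CPM in the E15.5 mandibular and 49.99 (41.1 to 60.2) CPM in the P1 mandibular library. In the E15.5 mandibular library they held 60.2% of the Sfrp4 UMIs and 3.74% of all UMIs. The log2 ratio of P1 over E15.5 in mandibular osteoblasts was -2.51 (-2.81 to -2.22). Of the P1 mandibular osteoblasts 41.4% had a high doublet score, against 6.9% at E15.5, and without such cells and mitochondrial outliers the ratio was -1.81.

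Some other mandibular classes had the higher Sfrp4 level at P1, and others did not. Fibroblasts marked by Dpt and Clec3b measured 16.7 (14.3 to 19.4) CPM in the E15.5 cells and 53.7 (48.7 to 59.1) CPM in the P1 cells, a log2 ratio of 1.69 (1.42 to 1.95). Jaw mesenchyme marked by Ebf2 and Meox2 measured 4.26 (3.22 to 5.52) CPM and 14.6 (12.1 to 17.6) CPM, a log2 ratio of 1.78 (1.31 to 2.27). In the maxillary molar the fibroblast intervals overlapped, at 16.8 (14.99 to 18.9) CPM and 14.2 (11.6 to 17.1) CPM. The P1 maxillary library gave no osteoblast class, and its highest named class was chondrocytes, the cartilage cells, at 35.9 (27.9 to 45.4) CPM. The E15.5 mandibular chondrocytes measured 2.78 (1.56 to 4.59) CPM. In that library the class of other leukocytes, at 16.9 (10.0 to 26.8) CPM from 18 UMIs, overlapped the fibroblasts. An unnamed mesenchymal cluster of the P1 maxillary library led by Bmp3 and Pdzrn4, with Ibsp also among its leading genes, reached 84.7 (74.3 to 96.0) CPM.

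Sfrp4 was also the member that was lower in maxillary than in mandibular mesenchyme at both stages. Its mesenchyme level was 11.2 (10.4 to 12.1) against 31.7 (30.1 to 33.4) CPM at E15.5, a log2 ratio of maxillary over mandibular of -1.50 (-1.63 to -1.37). At P1 it was 6.63 (6.08 to 7.23) against 13.5 (12.7 to 14.5) CPM, a log2 ratio of -1.03 (-1.19 to -0.87). Of 19974 genes 1.61% were at least 2-fold lower at both stages, and 1.73% were at least 2-fold higher, the last with no member among them. The P1 ratio was 0.17 without the shared barcodes, -0.84 with them kept in both libraries and -0.53 as a mean over cells. At E15.5 osteoblasts held 915 of the 1452 Sfrp4 UMIs of mandibular mesenchyme and 201 of the 708 of maxillary mesenchyme. The E15.5 ratio between jaws was -2.36 (-2.59 to -2.14) in osteoblasts. It was 0.01 (-0.26 to 0.29) in fibroblasts marked by Dpt and Clec3b and -0.04 (-0.89 to 0.75) in jaw mesenchyme marked by Ebf2 and Meox2.

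Sfrp5 (chr19:42197971-42202252, minus strand) was the 1 member whose highest class was the same in all 4 libraries, the Schwann lineage glia. Papilla, follicle, osteoblasts, facial mesenchyme and the class marked by Bglap, Dmp1 and Phex were not named in every library. A member highest in 1 of those classes could not meet this rule, and the share of all genes that meet it was not counted. Its level there was 102 (89.7 to 115) CPM in E15.5 maxillary, 140.3 (125 to 157) CPM in E15.5 mandibular, 94.3 (79.7 to 111) CPM in P1 maxillary and 63.9 (49.9 to 80.7) CPM in P1 mandibular. No other class of at least 50 cells exceeded 21.2 CPM in these libraries. The glia held 65.9%, 74.5%, 31.6% and 22.1% of the Sfrp5 UMIs of the libraries in the same order. The log2 ratio of P1 over E15.5 in the glia was -0.11 (-0.41 to 0.19) in the maxillary and -1.13 (-1.53 to -0.76) in the mandibular molar. Of the 99 P1 mandibular glia 36.4% had a high doublet score, against 14.4% at E15.5, and without such cells and mitochondrial outliers the mandibular ratio was -0.67.

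The other Sfrp5 UMIs lay mainly in epithelium in 3 libraries, but in E15.5 maxillary the mesenchyme held 116 and the epithelium 11. Suprabasal oral epithelium, the differentiating layers of the mouth lining, measured 21.2 (16.1 to 27.5) CPM in the E15.5 mandibular and 0.437 (0.119 to 1.12) CPM in the E15.5 maxillary library. At P1 this class had 0 Sfrp5 UMIs, which allows up to 1.11 CPM in the maxillary and 3.51 CPM in the mandibular library (3 counts). The P1 signal was in other epithelial clusters, with 64.1 (54.9 to 74.3) CPM in a maxillary cluster of 462 cells led by Nppc and Moxd1 and 24.0 (20.6 to 27.7) CPM in a mandibular cluster of 463 cells led by Odam, a gene of the enamel epithelium. Immune and erythroid cells held 1, 3, 1 and 3 Sfrp5 UMIs in the 4 libraries.

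**Figure D2:**
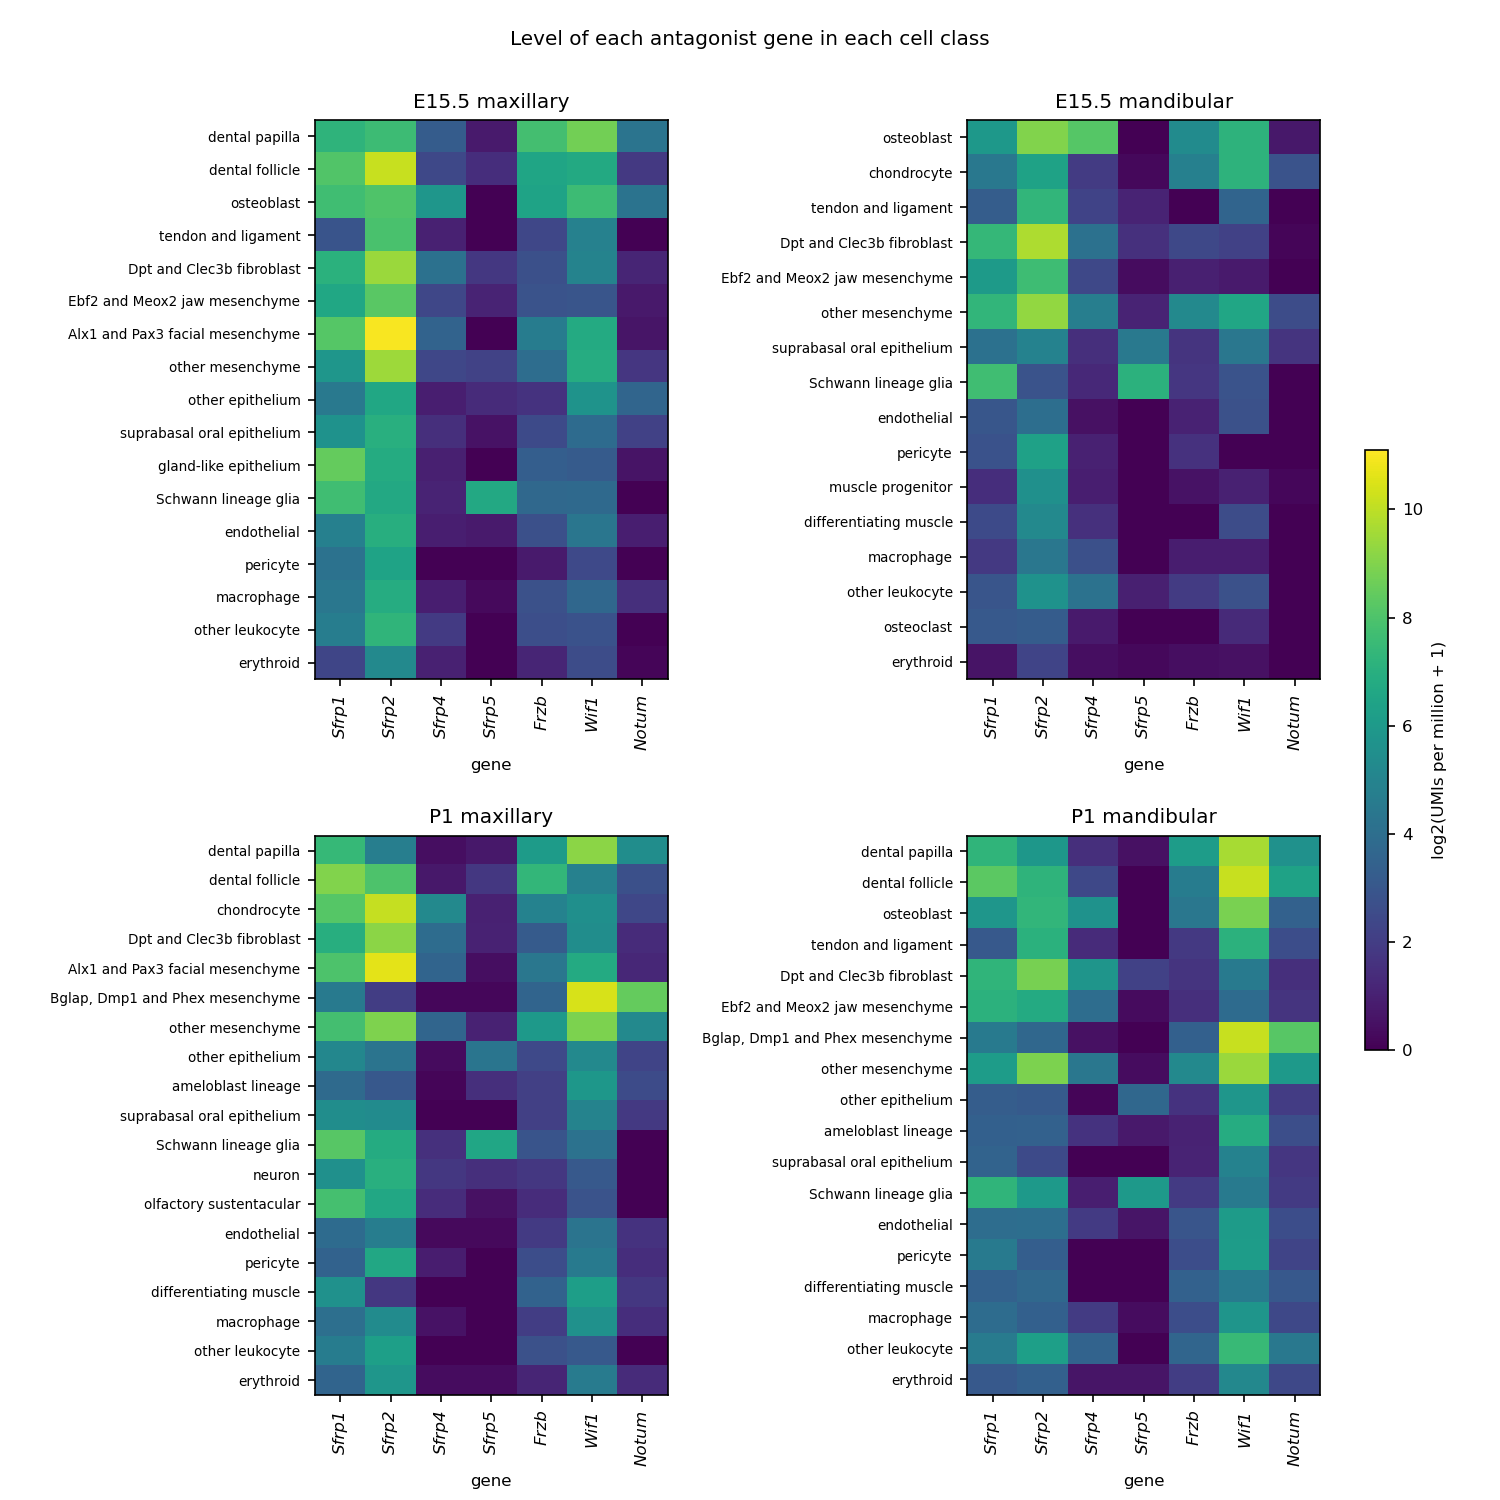
Level of each gene in each class of at least 50 cells in the 4 libraries, coloured by log2(CPM + 1). Sfrp5 is highest in the Schwann lineage glia of every library, and Notum at P1 is highest in the class marked by Bglap, Dmp1 and Phex.

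Wif1 (chr10:121033960-121100650, plus strand) and Notum (chr11:120653788-120661175, minus strand) were the members at least 2-fold higher at P1 in the mesenchyme of both jaws, a rule met by 7.56% of genes. The Wif1 mesenchyme level was 96.3 (93.9 to 98.7) CPM in E15.5 maxillary and 50.9 (48.8 to 53.0) CPM in E15.5 mandibular, and 517 (512 to 522) CPM in P1 maxillary and 598 (592 to 604) CPM in P1 mandibular. Both P1 values were above both E15.5 values, with log2 ratios of 2.42 (2.38 to 2.46) in the maxillary and 3.55 (3.49 to 3.62) in the mandibular molar. The Notum mesenchyme level was 3.50 (3.05 to 3.99) CPM in E15.5 maxillary and 1.96 (1.58 to 2.42) CPM in E15.5 mandibular, and 62.3 (60.6 to 64.1) CPM in P1 maxillary and 63.2 (61.3 to 65.1) CPM in P1 mandibular. The P1 intervals of the jaws overlap, and the log2 ratios of P1 over E15.5 were 4.15 (3.96 to 4.36) and 5.01 (4.71 to 5.33). The mesenchyme compared differed in make-up between stages. Papilla was 292 of 5858 E15.5 and 2347 of 9724 P1 mesenchymal cells in the maxillary libraries. In the mandibular libraries no papilla class was named at E15.5, and it was 2040 of 5209 cells at P1. The class marked by Bglap, Dmp1 and Phex was named at P1 only. The part of make-up in the whole-mesenchyme ratios was not tested.

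In the maxillary library the whole-mesenchyme P1 values of Wif1 and Notum again rested on the shared barcodes, which hold most papilla cells. Within the P1 maxillary mesenchyme, Wif1 measured 609 CPM in shared and 89.2 CPM in other barcodes, and Notum 74.6 and 5.78 CPM. Without the shared barcodes the maxillary log2 ratio of P1 over E15.5 was -0.11 for Wif1 and 0.72 for Notum. Dropping them also changed the make-up, leaving 80 of the 2347 papilla cells. Those 80 measured 456 CPM of Wif1 and 51.7 CPM of Notum, against 572 and 42.1 CPM in the shared papilla barcodes. In mesenchyme with no type name Wif1 was 95.4 CPM outside and 635 CPM in the shared barcodes, and Notum 3.9 and 48.9 CPM. The part of make-up in this change was not tested. Read from the mandibular counts, the same shared barcodes gave 600.2 CPM of Wif1 and 74.2 CPM of Notum. These lie near the values from the maxillary counts but are no separate check of them, because the barcodes are the same. Where the mandibular counts of shared barcodes showed Wif1, the maxillary counts showed it too in 95.5% of cases, and for Notum in 89.4%.

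At P1 Notum was highest in the class marked by Bglap, Dmp1 and Phex in both jaws, and Wif1 in the maxillary library. Wif1 measured 1384 (1357 to 1411) CPM in 372 maxillary cells and 1156 (1131 to 1181) CPM in 389 mandibular cells, where its interval overlaps the 1150.1 (1083 to 1221) CPM of the follicle cluster. Notum measured 359.8 (346 to 374) CPM and 297 (285 to 309.9) CPM in the same cells. These cells held 52.9% and 48.1% of the Notum UMIs of their libraries and 24.3% and 19.2% of the Wif1 UMIs, with 5.85% and 6.31% of all UMIs. After thinning to 1000 UMIs, 29.6% and 27.2% of them had a Notum UMI, against 0.108% and 0.509% of immune and erythroid cells. Unthinned, the shares were 96.0% and 88.9% at median depths of 19786.5 and 17832 UMIs, against 0.432% and 1.96% of immune and erythroid cells at 2135 and 5313 UMIs.

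Dental papilla, which forms the pulp and the odontoblasts, was also high in both genes. Wif1 measured 421 (397 to 446) CPM in maxillary papilla at E15.5 and 571 (562 to 579.6) CPM at P1, a log2 ratio of 0.44 (0.35 to 0.53), and 801 (790.1 to 811) CPM in mandibular papilla at P1. Notum measured 18.5 (13.7 to 24.4), 42.2 (39.9 to 44.6) and 48.4 (45.8 to 51.0) CPM in the same order, with a maxillary log2 ratio of 1.19 (0.78 to 1.63). In the P1 mandibular library the follicle cluster, at 82.8 CPM, and the mesenchyme with no type name, at 61.8 CPM, lay above papilla in Notum. The P1 maxillary follicle was at 5.61 CPM. With finer clusters the maxillary papilla ratios were -1.81 for Wif1 and -1.81 for Notum, so this stage difference depended on how the papilla was delimited. Clusters within the P1 papilla differed. A maxillary cluster led by Grik1 and Rab3b measured 279 CPM of Wif1 and 9.97 CPM of Notum, and one led by Omd and Stbd1 measured 889.6 and 77.4 CPM. A mandibular papilla cluster led by Cntn6, Pappa and Gabrg3 had 784 CPM of Wif1 with 7.60 CPM of Notum, the last at the 7.73 CPM of the background. The P1 follicle classes were unlike each other in Wif1, with 28.7 (23.1 to 35.2) CPM in the maxillary and 1150.1 (1083 to 1221) CPM in the mandibular library. The P1 maxillary value was at the level of immune and erythroid cells of that library, 29.7 CPM in all and 47.1 CPM in their shared barcodes. It was lower than the 105 CPM of the E15.5 maxillary follicle class, a log2 ratio of P1 over E15.5 of -1.88 (-2.19 to -1.58).

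**Figure D3:**
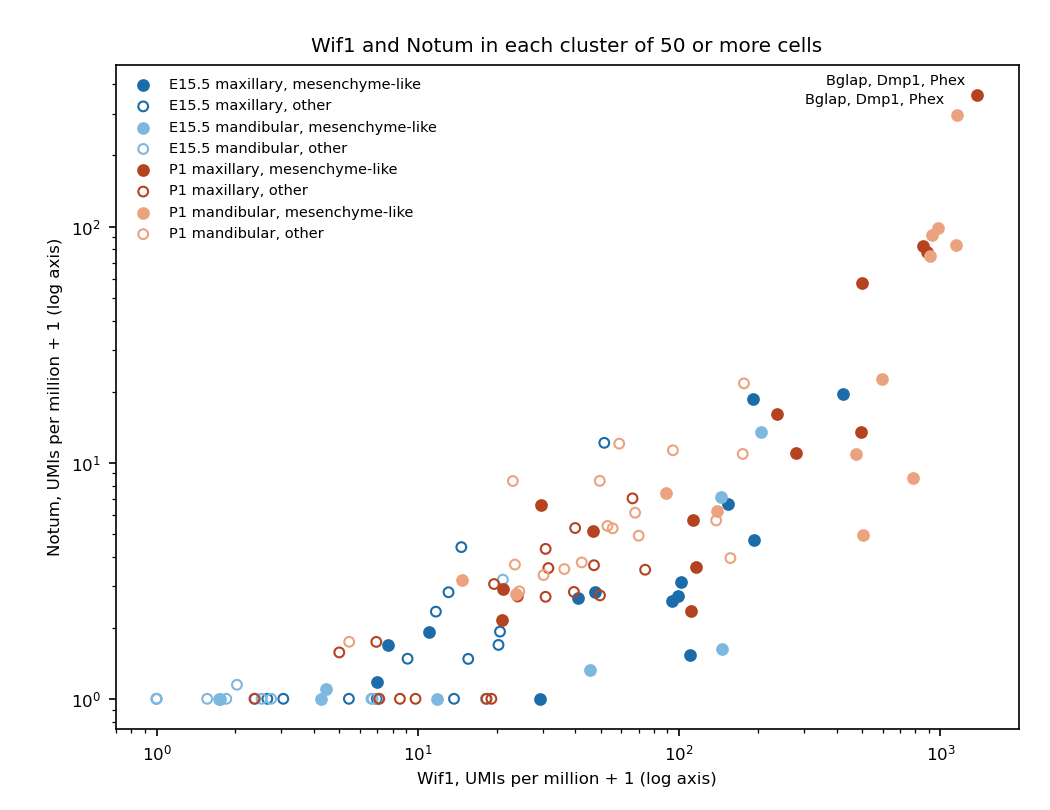
Wif1 (x axis) against Notum (y axis) in each cluster of at least 50 cells, as CPM + 1 on log axes, with filled points for mesenchyme-like and open points for other clusters. Notum is highest in the P1 clusters marked by Bglap, Dmp1 and Phex, where Wif1 is high too, and a P1 mandibular papilla cluster has 784 CPM of Wif1 with 7.60 CPM of Notum.

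Most P1 mesenchymal cells with a Notum UMI also had a Wif1 UMI. In the class marked by Bglap, Dmp1 and Phex this held for 352 of 357 maxillary and 344 of 346 mandibular cells, while 97.0% and 97.4% of all cells of the class had Wif1. In papilla 93.1% of maxillary and 98.5% of mandibular cells with Notum had Wif1, against 75.8% and 87.6% of all papilla cells. Deeper cells show more genes, and the part of depth in these shares was not tested.

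Osteoblasts of the mandibular molar had the higher Wif1 level at P1 as well, with 145 (132 to 159) CPM in the E15.5 cells and 472 (444 to 502) CPM in the P1 cells, a log2 ratio of 1.70 (1.54 to 1.86). Of 8 pairs of mesenchymal class and jaw, the Wif1 interval of P1 over E15.5 lay above 0 in 6 and below 0 in 1. The 1 below 0 was maxillary follicle, and maxillary facial mesenchyme was at 0.01 (-0.20 to 0.23). The mandibular osteoblasts held 2 Notum UMIs at E15.5 and 22 at P1, where the level of 9.91 CPM was near the 7.73 CPM of immune and erythroid cells and 41.4% of the osteoblasts had a high doublet score. E15.5 maxillary osteoblasts had 64 Notum UMIs, a level of 17.6 (13.6 to 22.5) CPM that overlaps that of papilla. Wif1 was also higher at P1 in the background. Immune and erythroid cells measured 7.35, 0.896, 29.7 and 72.3 CPM of Wif1 in E15.5 maxillary, E15.5 mandibular, P1 maxillary and P1 mandibular. The shares of these cells with a high doublet score were 5.1%, 3.8%, 11.5% and 17.3% in the same order. The P1 mandibular values of jaw mesenchyme (13.7 CPM) and of fibroblasts marked by Dpt and Clec3b (22.8 CPM) lay below that background. The epithelium of that library was near it, at 79.1 (75.8 to 82.4) CPM.

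The genes whose pattern was most like each member were found among 9168 genes that reach 50 CPM in some class, over 70 points (classes of at least 50 cells in the 4 libraries, general mesenchyme and epithelium included), by Pearson correlation of log2(CPM + 1). Points of 1 library share its depth and free RNA, and the values are descriptions. Wif1 was most like Omd (0.90), Notum (0.86), Tcf7 (0.86), and Notum was most like Smpd3 (0.87), Dkk1 (0.86), Wif1 (0.86). Sfrp2 was most like Gm26771 (0.94), Rspo3 (0.87), Slc1a3 (0.86), and Sfrp5 was most like Nkx2-2os (0.81), Lgi4 (0.81), Ttyh1 (0.81). The genes nearest to Frzb were Foxf2 (0.81), Hhip (0.80), Fgf14 (0.80), those nearest to Sfrp4 were Dpep1 (0.81), Scara5 (0.74), Tspan11 (0.73) and those nearest to Sfrp1 were Ntrk3 (0.79), Ncam2 (0.78), Gria3 (0.77). Between members the highest correlations were 0.86 for Wif1 and Notum, 0.69 for Frzb and Wif1 and 0.67 for Sfrp2 and Sfrp4, and Sfrp5 lay between -0.16 and 0.34 with the other members.

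The rest of the pathway was counted by the same 2-fold rules over a list of 59 genes. Of 14 Wnt ligands measured in every library, 7 were lower in mesenchyme than in epithelium in all 4 libraries and 2 were higher, Wnt2 and Wnt9a. Wnt4 had log2 ratios of -4.84, -5.21, -3.12 and -3.15 in E15.5 maxillary, E15.5 mandibular, P1 maxillary and P1 mandibular. All 4 R-spondins, secreted proteins that keep Frizzled at the cell surface, were higher in mesenchyme, as were 2 of 3 inhibitors that bind the Lrp co-receptors, Dkk1 and Dkk2. Of 5 genes grouped under Wnt secretion 2 were higher, Gpc3 and Gpc6, which encode glypicans of the cell surface. Of 11 target and feedback genes Nkd1 was higher and Rnf43 lower, and of 15 receptors and co-receptors Fzd4 was higher and Fzd3 and Fzd6 were lower. Of all genes 7.62% were higher and 5.45% lower by this rule.

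Between stages, 4 of 16 ligands were higher and 1, Wnt16, was lower at P1 in the mesenchyme of both jaws. Wnt6 measured 4.31 and 1.66 CPM in the E15.5 and 56.4 and 62.3 CPM in the P1 mesenchyme (maxillary, then mandibular), log2 ratios of 3.71 and 5.23. Dkk1, an inhibitor that binds the Lrp co-receptors and 1 of 4 measured, measured 9.50 and 3.93 CPM in the E15.5 and 96.7 and 81.7 CPM in the P1 mesenchyme (maxillary, then mandibular), log2 ratios of 3.35 and 4.38. Of the R-spondins, Rspo4 and Rspo2 were higher, with log2 ratios of 7.75 and 6.29 and of 3.05 and 2.02, and Rspo3 was lower, with -2.08 and -2.11. Of 11 target and feedback genes Tcf7 (1.94 and 2.12) and Lgr6 (1.481 and 2.22) were higher and Lgr5 (-2.15 and -1.88) was lower, and of 15 receptors and co-receptors 4 were higher and 1, Fzd4, was lower. No gene of the 5 grouped under Wnt secretion passed the rule, which 7.56% of all genes met as higher and 3.03% as lower. As for the members, the P1 maxillary values of these genes include the shared barcodes. Between jaws 4 genes of the list were at least 2-fold higher in maxillary mesenchyme at both stages, Wnt16, Lgr5, Sp5 and Rspo1, and none was lower. They are 1 of 13 ligands, 2 of 11 target and feedback genes and 1 of 4 R-spondins measured, against 1.73% of all genes higher and 1.61% lower.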

How the data were processed

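Single-cell RNA libraries were prepared by the authors with the 10x Chromium 3' kit, and the submitters' processing notes name Cell Ranger 7.0.1 and mm10 (GRCm38). The deposited values are raw UMI counts per gene and barcode, without normalization. Total counts were 109723360, 86659227, 128812956 and 139873101 UMIs for E15.5 maxillary, E15.5 mandibular, P1 maxillary and P1 mandibular. The tooth organs of a library were pooled, so no animal can be told from another.

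Barcodes with at least 1000 UMIs were kept, and barcodes shared by the P1 libraries were dropped from the mandibular one. Each library was clustered alone (scanpy 1.11.5, 2000 variable genes without the Wnt pathway, mitochondrial and ribosomal genes, 40 components, 15 neighbours, Leiden resolution 1.0). Clusters were named from 168 markers of 27 cell classes. The naming thresholds were set after clusters had been seen, early listings of leading genes showed Sfrp2 and Sfrp4, and the last edits followed a first look at the counts of members, which came out the same. The members, lists and markers were chosen with earlier results of these data known. Class names rebuilt here may differ from those of the study. Doublets were not removed. As an alternative, the highest Scrublet scores (0.8% per 1000 barcodes) and mitochondrial outliers (3 median absolute deviations) were removed, because the automatic Scrublet threshold failed in 1 library. Classes needed 50 cells. In the shares over all genes and the pathway counts a gene needed 10 UMIs over its sides, and the ratios of members had no such minimum. A count of 0 was set to 3 counts as a bound, and no ratio was formed where both sides had 3 counts or fewer. No test was made. The interval code was checked on simulated counts.

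The named genes are the 7 members, the 3 genes most correlated with each, and, from each pathway group, the genes with the largest differences among those of at least 20 CPM; Wnt2, Wnt9a, Wnt16, Fzd4, Dkk1 (over epithelium) and Sp5 were named after their values were seen, because the counts were small. Alternatives were a minimum of 2000 UMIs, finer clusters (resolution 2.0), shared barcodes dropped from or kept in both P1 libraries, the doublet and mitochondrial filter, and a mean over cells. Gene positions are from GENCODE vM21, and 4 of the 7 promoters (Sfrp2, Sfrp5, Frzb and Wif1) were matched in the RefSeq table. Python 3.11.15, numpy 2.4.6, scipy 1.17.1 and leidenalg 0.10.2 were used.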

Additional observations from a re-analysis of the deposited data

Results flagged for a closer look

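In endothelial cells the log2 ratio of P1 over E15.5 had opposite signs in the jaws for 2 members, and this difference was not tested. For Sfrp1 it was -0.99 (from 27.4 CPM in E15.5 cells to 13.8 CPM in P1 cells) in the maxillary and 1.14 (from 6.77 CPM in E15.5 cells to 14.9 CPM in P1 cells) in the mandibular molar. For Frzb it was -1.05 (from 5.55 CPM in E15.5 cells to 2.68 CPM in P1 cells) in the maxillary and 2.62 (from 1.06 CPM in E15.5 cells to 6.49 CPM in P1 cells) in the mandibular molar. Without high doublet scores and mitochondrial outliers the mandibular Sfrp1 ratio was -0.79, the sign of the maxillary one, and 38.9% of the P1 mandibular endothelial cells had a high doublet score. The values with all cells rest on 5 to 148 UMIs a side. Immune and erythroid cells of the P1 maxillary and mandibular libraries measured 14.9 and 13.6 CPM of Sfrp1 and 2.58 and 5.52 CPM of Frzb.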

How the results depend on the processing

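The 7 counts over members stayed within 1.5 times under a minimum of 2000 UMIs and under finer clusters. With shared barcodes dropped from both P1 libraries, the members higher at P1 in both jaws were 0, those lower at P1 were 0 and those lower in maxillary mesenchyme were 0. Members lower in maxillary mesenchyme were also 0 with shared barcodes kept in both libraries and 0 with a mean over cells. Members lower at P1 were 2 (Sfrp2 and Sfrp5) without high doublet scores and mitochondrial outliers, and 0 with a mean over cells, where the maxillary Sfrp2 log2 ratio was -0.16.

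Log2 ratios that were at least 2-fold and changed sign were these. With shared barcodes dropped, Notum in P1 maxillary mesenchyme over epithelium was -0.006, and Sfrp4 in maxillary over mandibular mesenchyme at P1 was 0.17. Under that setting the maxillary ratios of P1 over E15.5 were 0.70 for Sfrp2 and -0.11 for Wif1 in mesenchyme, and 0.013 for Sfrp2 and -1.17 for Wif1 (4 UMIs at P1) in macrophages. With finer clusters the maxillary ratios were 0.64 for Frzb and -1.81 for Notum in papilla and -0.58 for Notum in follicle. Without high doublet scores and mitochondrial outliers, Sfrp1 in mandibular endothelium was -0.79 and Sfrp2 in mandibular Schwann lineage glia was -1.17. The next ratios rest on few UMIs, too few to show a direction. With shared barcodes dropped, Sfrp4 in maxillary papilla was at most 0.73, a bound from 0 UMIs at P1. Sfrp5 in maxillary fibroblasts marked by Dpt and Clec3b was 0.038 (4 UMIs at P1), Sfrp5 in endothelium 0.058 (1), Wif1 in pericytes -0.031 (2) and Sfrp4 in macrophages 0.56 (1). With a mean over cells, Sfrp4 in maxillary endothelium was 0.20 (1 UMI at P1). Among smaller ratios, the maxillary P1 over E15.5 ratio was -0.53 for Frzb and 0.44 for Sfrp4 in mesenchyme and 0.29 for Sfrp2 in fibroblasts marked by Dpt and Clec3b with shared barcodes dropped, and -1.81 for Wif1 in papilla with finer clusters. The causes were not tested.

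No paired analysis was possible because the groups share fewer than 2 replicate numbers, each being 1 library, and no replicate could be left out. Stages were compared within each jaw, and a fit of stage with jaw as a term was not run. Depth limits the low values most: Sfrp4 in epithelium rests on 4 to 25 UMIs per library, and Sfrp5 in mesenchyme on 40 to 116. Some alternatives left too few cells or counts in a class to give a value.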
